A study of Mus musculus with 6 samples.

Results

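Krüppel-like factors are transcription factors with a C-terminal zinc-finger domain that binds GC-rich and CACCC elements of promoters. Described here are 8 of their genes, Klf2, Klf3, Klf4, Klf6, Klf7, Klf9, Klf10 and Klf13, in RAW 264.7 cells, a virus-transformed mouse macrophage line. They were chosen as every probe whose only gene symbol in the array's annotation is one of these names, which gave 9 of 16281 probes and 8 of 10698 named genes. A second Klf10 probe had no value on any array, so each gene rests on 1 probe. The probes are assigned by annotation alone, and whether one binds transcripts of another family member was not tested.

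The study compared total RNA of cells given lipopolysaccharide (LPS, 100 ng/ml) together with LPS-binding protein (LBP, 100 pM) for 2 h with that of untreated cells cultured for 2 h, on 6 two-colour microarrays. On 3 arrays, called forward here, the red dye Cy5 marked the treated RNA and the green dye Cy3 the untreated RNA, and on 3 swapped arrays the dyes were exchanged. Forward and swapped arrays carry set numbers 1 to 3 in the labels. Whether sets were separate cultures is not stated there, so p-values measure only the spread between sets, which may be technical. LPS and LBP were given together, and their separate effects were not analysed here. The deposited values are log2 ratios of both channels, with no signal levels, so the levels of macrophage markers, or of a Klf gene in untreated cells, could not be read. Of 9 macrophage marker genes, 7 had a ratio on all arrays.

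Within the family, some proteins mainly activate transcription (KLF2, KLF4, KLF6 and KLF7), one here recruits the co-repressor CtBP (KLF3), and others recruit the co-repressor Sin3A (KLF9, KLF10 and KLF13). In macrophages KLF2 is known as a brake on inflammatory activation, KLF4 as a factor of monocyte differentiation and alternative activation, and KLF6 as a factor that favours inflammatory gene expression. Several of these genes are early response genes whose transcripts turn over quickly.

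The 4 members that passed the test described below are Klf2, Klf4, Klf6 and Klf9, and the bases in front of their annotated starts are shown to set members that moved in opposite directions side by side. Each line gives the 250 bases before the start, 5′ to 3′ on the strand of the gene, from RefSeq in build GRCm38.p6. They lie at chr8:72318812-72319061 on the plus strand for Klf2, chr4:55532476-55532725 on the minus strand for Klf4, chr13:5861239-5861488 on the plus strand for Klf6 and chr19:23140976-23141225 on the plus strand for Klf9. Capitals mark matches, on either strand, to any of 11 motifs: the GC box GGGCGG, the CACCC box CCACCC, the CCAAT box CCAAT, the AP-1 site TGANTCA, the CRE core TGACGT, the STAT site TTCNNNGAA, the TATA box TATAAA, the ETS site CCGGAAGT, and the sites of NF-κB, MEF2 and SRF.
Klf2: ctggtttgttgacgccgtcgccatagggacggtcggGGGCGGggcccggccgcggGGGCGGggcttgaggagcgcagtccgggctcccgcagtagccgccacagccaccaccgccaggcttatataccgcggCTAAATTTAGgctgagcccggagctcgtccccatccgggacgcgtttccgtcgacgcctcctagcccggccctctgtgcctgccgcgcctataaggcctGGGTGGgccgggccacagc
Klf4: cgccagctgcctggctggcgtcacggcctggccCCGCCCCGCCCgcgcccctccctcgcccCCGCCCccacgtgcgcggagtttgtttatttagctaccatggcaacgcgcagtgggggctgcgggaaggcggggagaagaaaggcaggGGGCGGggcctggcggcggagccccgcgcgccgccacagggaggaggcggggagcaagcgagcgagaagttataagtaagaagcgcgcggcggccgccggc
Klf6: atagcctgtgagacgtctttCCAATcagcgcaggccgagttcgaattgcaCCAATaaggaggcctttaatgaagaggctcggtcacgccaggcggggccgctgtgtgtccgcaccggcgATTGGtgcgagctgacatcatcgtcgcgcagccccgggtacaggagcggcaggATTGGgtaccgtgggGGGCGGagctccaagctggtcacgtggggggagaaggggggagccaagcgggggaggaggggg
Klf9: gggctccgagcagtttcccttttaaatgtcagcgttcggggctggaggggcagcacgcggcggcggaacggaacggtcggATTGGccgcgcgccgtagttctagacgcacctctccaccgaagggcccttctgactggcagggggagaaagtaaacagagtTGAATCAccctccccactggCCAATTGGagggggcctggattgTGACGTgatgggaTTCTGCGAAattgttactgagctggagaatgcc

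All 4 stretches held more G and C than the median of 52.4% over 32851 promoter windows of the same length. Klf2 had 71.2%, Klf4 74.0%, Klf6 64.8% and Klf9 59.6%, the last below the upper quartile of 61.2%. Members that did not pass covered a similar range, with Klf3 at 78.4%, Klf13 at 71.6% and Klf7 at 59.2%. The GC box was found 2 times for Klf2, 4 times for Klf4, 1 time for Klf6 and not for Klf9, and 32.7% of all windows held it. Klf2 had 1 match to the MEF2 site, starting 118 bases before the gene, a match that 0.508% of all windows held. MEF2 is the factor through which the kinase ERK5 is known to drive Klf2 in endothelium. Klf6 had 4 CCAAT boxes and Klf9 had 3, the last 2 of them overlapping, against 33.8% of all windows with at least 1. The CACCC box, a known element of KLF binding, matched 1 time for Klf2, starting 19 bases before the gene, against 28.1% of windows. Klf9 alone of the 4 had a match to the AP-1 pattern (6.75% of windows), a CRE core match (6.47%) and a STAT match (7.02%). The AP-1 pattern as searched is loose, since it allows any middle base, and the match reads TGAATCA. No match to the NF-κB, SRF, TATA or ETS motifs lay in these 4 windows. Members that did not pass held such matches too. Klf13 had 3 GC boxes, 2 CCAAT boxes, 1 CACCC box and 1 CRE core match. Klf3 had 6 GC boxes and 3 CACCC boxes, Klf7 had 1 GC box and 3 CACCC boxes, and neither had a CCAAT box. Whether motifs go with the direction of change was not tested. A match describes letters, not a bound site.

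In what follows, the sign of the ratio was turned on the swapped arrays, and a positive log2 ratio means more transcript after LPS and LBP. The direction of the deposited ratio, red over green, is the likely one and is stated by no source. All 8 of the genes known to be induced by LPS that were measured on every array, of 10 listed, were positive on 6 of 6 arrays after this step. Both arrays of a set were averaged, and means are given ± SD over n = 3 sets. "Rose" and "fell" are used for an adjusted p under 0.05 from limma, adjusted by Benjamini and Hochberg over 11231 features (genes, and probes with no single symbol). A ratio of total RNA cannot tell fewer cells with a transcript from less transcript per cell.

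Klf9 and Klf6 rose and Klf2 and Klf4 fell after 2 h with LPS and LBP, while Klf3, Klf7, Klf10 and Klf13 did not pass the test. Klf9 had the highest mean, 1.70-fold up, and Klf2 the lowest, 1.56-fold down. Thus 4 of 8 members passed, against 14.8% of all features. Of the members, 2 rose, against 7.35% of features, and 2 fell, against 7.45% of features. Each of these 4 kept 1 sign over 6 of 6 arrays, as did 19.1% of all features. The members and their split were chosen with results of these arrays known, so these counts describe them and are no evidence about the family. The median over the members was -0.01, beside a median of 0.00 over all features.

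**Figure D1:**
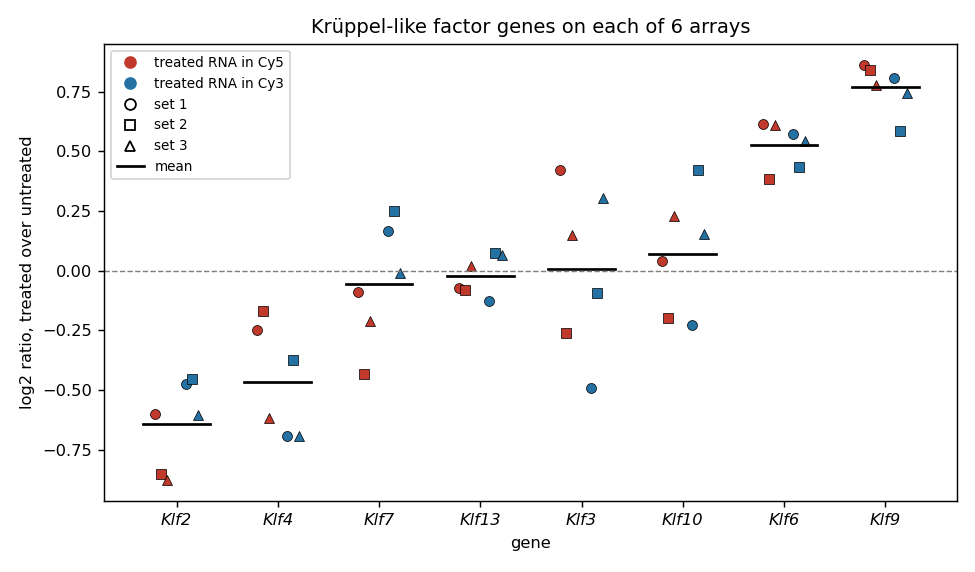
Log2 ratio of treated over untreated (vertical axis) for each of the 8 genes (horizontal axis, ordered by mean) on each of 6 arrays, with colour for dye orientation, marker shape for set and a bar for the mean. All 6 points of Klf9 (0.59 to 0.86) and Klf6 (0.38 to 0.62) lie above 0, and all 6 of Klf2 (-0.88 to -0.46) and Klf4 (-0.69 to -0.17) lie below it.

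Among the activators, Klf2 stood at -0.60, -0.85 and -0.88 in sets 1, 2 and 3 on the forward arrays, and at -0.48, -0.46 and -0.61 on the swapped arrays. It was lower in treated cells on 6 of 6 arrays, and its values were further below 0 on the forward array of each set. The mean was -0.64 ± 0.10 (95% interval -0.78 to -0.51), a fall of 1.56-fold with limma adjusted p = 0.000815. Only 72 of 11231 features (0.641%) had a lower mean. Without any 1 set it lay between -0.70 and -0.60, and it remained past the threshold in all 19 alternatives tried.

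Klf4, which encodes one of the factors used to reprogram cells to pluripotency, stood at -0.25, -0.17 and -0.62 in sets 1 to 3 on the forward arrays and at -0.69, -0.38 and -0.69 on the swapped arrays. All 6 arrays were below 0, but set 2 was nearest to 0 in both orientations. The mean was -0.47 ± 0.19 (95% interval -0.65 to -0.28), a fall of 1.38-fold with limma adjusted p = 0.0104. Its SD was high, and only 9.59% of features had a larger one. The fall of Klf4 is the least firm of the 4 calls: adjusted p was 0.0649 without set 1 and 0.0858 without set 3. It was also 0.140 on the forward arrays alone, 0.100 without the swapped array of set 1, and 0.0821 without that of set 2.

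Klf6, which encodes an activator found as a core promoter-binding protein, moved the other way. Its values were 0.62, 0.38 and 0.61 in sets 1 to 3 on the forward arrays and 0.57, 0.43 and 0.54 on the swapped arrays. Set 2 was the lowest in both orientations, and the orientation means were close, at 0.54 and 0.52. The mean was 0.53 ± 0.10 (95% interval 0.39 to 0.66), a rise of 1.44-fold with limma adjusted p = 0.00187. A higher mean was seen for 260 features (2.32%).

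Klf7, an activator known from neuronal development, did not pass. It stood at -0.09, -0.43 and -0.21 on the forward arrays and at 0.16, 0.25 and -0.01 on the swapped arrays, so its sign followed the dye orientation on 5 of 6 arrays. The mean was -0.06 ± 0.08 (95% interval -0.18 to 0.07, limma adjusted p = 0.553). In a limma fit with a dye term, Klf7 leaned towards Cy3 by 0.19 (dye term -0.19, SE 0.06), the largest dye term in size among the 8, with an unadjusted p = 0.0171 and adjusted p = 0.122. None of the 8 members had a dye term past the threshold, against 0.499% of all features.

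**Figure D2:**
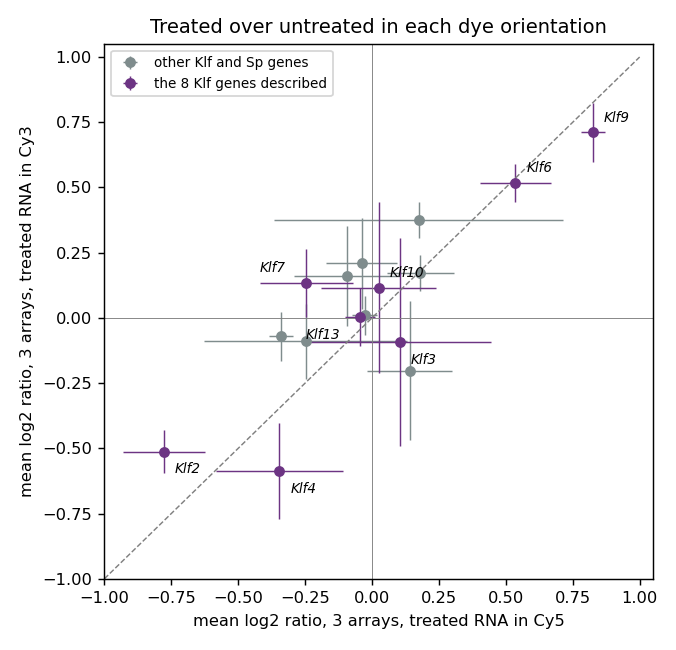
Mean log2 ratio of treated over untreated on the 3 forward arrays (treated RNA in Cy5, horizontal axis) against that on the 3 swapped arrays (treated RNA in Cy3, vertical axis), with bars of 1 SD over arrays, for the 8 genes and the 8 other Klf and Sp genes measured on all arrays. The dashed line marks equal means. Klf6 and Klf9 lie near it, Klf2 (-0.78 and -0.51) and Klf4 (-0.35 and -0.59) lie on opposite sides of it, and Klf7 (-0.25 and 0.13) changes sign.

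Klf3, whose product represses through CtBP, had the widest spread of the 8. It stood at 0.42, -0.26 and 0.15 on the forward arrays and at -0.49, -0.09 and 0.31 on the swapped arrays. Set 2 was negative and set 3 positive on both arrays, and the arrays of set 1 differed in sign. The mean was 0.01 ± 0.21 (95% interval -0.19 to 0.20, limma adjusted p = 0.979), and only 7.57% of features had a larger SD. Any change within that interval is compatible with the values of Klf3, and the interval is not a limit of detection.

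Among the members that recruit Sin3A, Klf9, a gene known to respond to glucocorticoid and thyroid hormone, rose. Its values were 0.86, 0.84 and 0.78 in sets 1 to 3 on the forward arrays and 0.80, 0.59 and 0.74 on the swapped arrays. All 6 arrays were high, and Klf9 was the highest of the 8 members on each of them. The mean was 0.77 ± 0.06 (95% interval 0.65 to 0.88), a rise of 1.70-fold with limma adjusted p = 0.000235. Higher means were seen for 170 features (1.51%). For scale, the cytokine gene Il1b had a mean of 3.98 in the same fit.

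Klf10, known as a TGF-β-inducible early gene, stood at 0.04, -0.20 and 0.23 on the forward arrays and at -0.23, 0.42 and 0.15 on the swapped arrays. In sets 1 and 2 the forward and swapped arrays differed in sign, and in set 3 both were positive. The mean was 0.07 ± 0.15 (95% interval -0.09 to 0.23, limma adjusted p = 0.560). Klf13, known as an activator of the chemokine gene Ccl5 in T cells, lay between -0.13 and 0.07 on the 6 arrays. Its mean was -0.02 ± 0.07 (95% interval -0.14 to 0.10, limma adjusted p = 0.834), and this interval is the narrowest among the 4 members that did not pass.

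**Figure D3:**
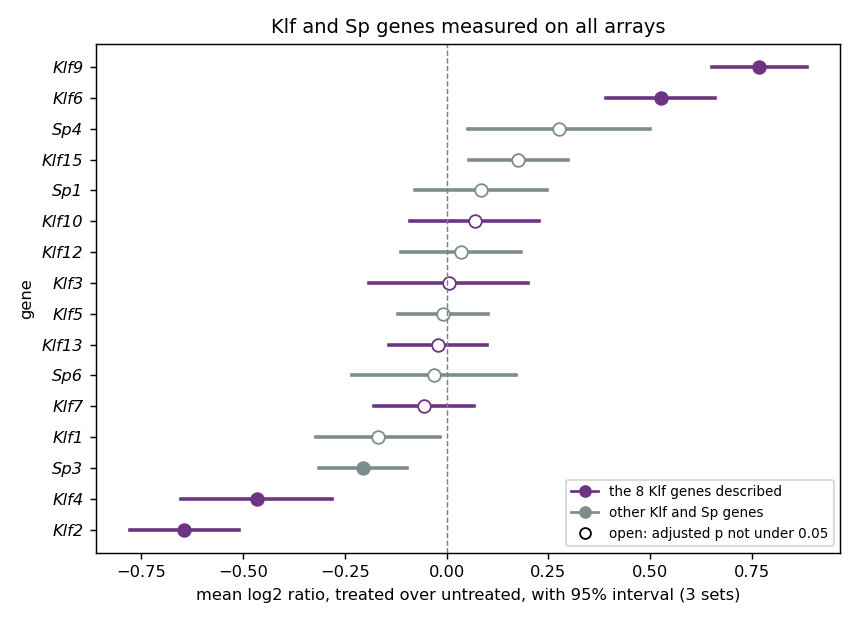
Mean log2 ratio of treated over untreated with its 95% interval from limma (horizontal axis) for the 16 Klf and Sp genes measured on all arrays (vertical axis). Filled points have an adjusted p under 0.05: Klf9 and Klf6 at the top, and Sp3, Klf4 and Klf2 at the bottom.

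In the order of the means, from Klf9 through Klf6, Klf10, Klf3, Klf13, Klf7 and Klf4 to Klf2, the differences between neighbours were compared with their spread over the 3 sets. An exact sign-flip test over 3 sets cannot give a two-sided p below 0.25, so values are given without a test. Klf9 exceeded Klf6 by 0.24 ± 0.06, and Klf6 exceeded Klf10 by 0.46 ± 0.21, each in all 3 sets. The 4 middle members were not separated: the differences from Klf10 to Klf3 (0.06 ± 0.19), Klf3 to Klf13 (0.03 ± 0.18) and Klf13 to Klf7 (0.03 ± 0.15) were smaller than their SD. Klf7 exceeded Klf4 by 0.41 ± 0.20. Klf4 and Klf2 differed by 0.18 ± 0.18, about as much as their SD. Klf4 was the higher of them in all 3 sets and yet the lowest member on 2 arrays.

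The members that fell were set against the other 6 as a description, since the split was made on these values. The mean of Klf2 and Klf4 was -0.56 and that of the other 6 was 0.22, a difference of 0.77 ± 0.19 over sets. On single arrays the difference ran from 0.55, on the forward array of set 2, to 1.01, on that of set 3. The groups were not apart gene by gene on every array. On the forward array of set 2, Klf7 (-0.43) lay below Klf4 (-0.17), and on the swapped array of set 1, Klf3 (-0.49) lay below Klf2 (-0.48). On the other 4 arrays each of the 6 lay above both Klf2 and Klf4. The gap between Klf9 and Klf2 was 1.41 ± 0.08, its SD smaller than that between Klf9 and Klf4 (1.24 ± 0.22).

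**Figure D4:**
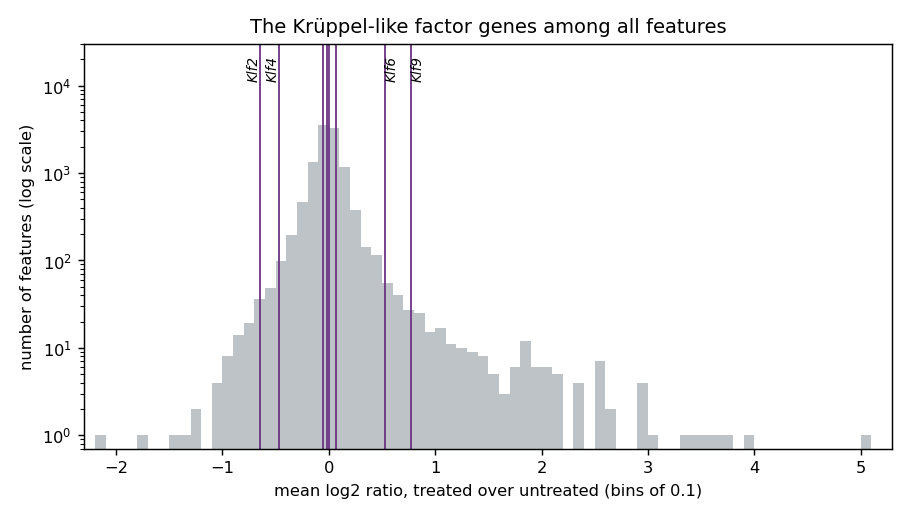
Number of features (vertical axis, log scale) by mean log2 ratio of treated over untreated (horizontal axis, bins of 0.1) for all 11231 features, with a line at the mean of each of the 8 genes. Klf2 (-0.64) and Klf4 (-0.47) lie in the left tail, Klf6 (0.53) and Klf9 (0.77) in the right, which reaches further, and the 4 other lines lie near 0.

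The array also held 4 other Klf genes and 5 Sp genes, whose products bind similar GC-rich elements. Of these 9, 8 were measured on all arrays, and 0 rose and 1 fell by limma, where 14.8% of all features passed. Sp3, a ubiquitous family member, was lower by 1.15-fold (-0.20 ± 0.03, limma adjusted p = 0.0296). Its mean was -0.34 on the forward arrays and -0.07 on the swapped arrays, and its call was lost in 10 of 18 alternatives, including each orientation alone. Klf15 (0.18 ± 0.07, limma adjusted p = 0.0684) was positive on 6 of 6 arrays without passing. Sp4 stood at 0.28 ± 0.25 (limma adjusted p = 0.109), Klf1, the erythroid member, at -0.17 ± 0.14 (adjusted p = 0.143), and Klf5, an epithelial member, at -0.01 ± 0.04 (adjusted p = 0.927). Klf12, another CtBP partner, Sp1 and Sp6 also did not pass, at 0.03, 0.09 and -0.03. Sp5 had a value on 4 arrays, between -0.75 and 0.58, and was not tested.

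Genes that act upstream of Klf2 and Klf4, or with KLF proteins, were read against the 14.8% of all features that passed, a share at which few genes of a short list would pass. Of 10 listed genes of the ERK5 cascade, MEF2 and FOXO factors, 9 were measured, and 0 of these passed by limma, with a median of -0.03 and means from -0.16 (Mef2c) to 0.18 (Map3k2, a kinase upstream of ERK5). At an unadjusted p under 0.05, Map3k2 and Mef2c were the 2 genes that passed. Of 14 listed co-factors and ubiquitin ligases of KLF proteins, 10 were measured and 0 passed by limma, with a median of -0.01. At an unadjusted p under 0.05, 3 genes passed: Sin3a (-0.20 ± 0.10, limma adjusted p = 0.0580), the acetylase gene Kat2b (-0.25 ± 0.14, adjusted p = 0.0501) and the ligase subunit gene Btrc (-0.12 ± 0.06, adjusted p = 0.174). The names of these genes at the unadjusted threshold were read after their values were seen. The 14.8% refers to adjusted p. The share of all features at the unadjusted threshold was not computed. It is above 14.8%, since every feature past the adjusted threshold also passes the unadjusted one. These counts are therefore no result about the lists.

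Of 15 listed genes known to depend on KLF2 or KLF4 in macrophages, endothelium or T cells, 10 were measured. Of these, 2 rose and 1 fell by limma, with a median of 0.04, where 14.8% of all features passed. The list takes no account of whether KLF2 or KLF4 raises or lowers a gene, so the counts and median have no expected direction. F3, a known KLF2 target that encodes tissue factor, rose 1.91-fold (0.93 ± 0.07, limma adjusted p = 0.000111, 6 of 6 arrays). Cdkn1a, a known KLF4 target that encodes the cyclin-dependent kinase inhibitor p21, rose 1.70-fold (0.76 ± 0.10, limma adjusted p = 0.000394, 6 of 6 arrays). Cdkn1b, the gene of the inhibitor p27, fell 1.25-fold (-0.32 ± 0.08, limma adjusted p = 0.00893, 5 of 6 arrays), a call lost in 7 of 18 alternatives, including each orientation alone. The endothelial KLF2 targets Thbd (-0.06 ± 0.07) and Nos3 (0.06 ± 0.19), the lymphocyte target S1pr1 (0.07 ± 0.09) and the alternative-activation gene Arg1 (0.14 ± 0.23) did not pass. Whether any of these values depends on Klf2 or Klf4 was not tested.

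Of 12 listed partners of Klf10 and Klf9 in TGF-β and glucocorticoid responses, 11 were measured, 3 rose, 3 fell and 5 did not pass by limma, with a median of 0.02, where 14.8% of all features passed. The Smad inhibitor gene Skil rose 2.13-fold (1.09 ± 0.04, limma adjusted p = 4.11e-05), the ligand gene Tgfb1 rose 1.40-fold (0.48 ± 0.04, limma adjusted p = 0.00127), and the receptor gene Tgfbr2 fell 2.04-fold (-1.03 ± 0.03, limma adjusted p = 5.12e-05), each on 6 of 6 arrays. With zeros kept as ratios of 0, Tgfbr2 stood at -0.51. In that setting probes that hold zeros are averaged with the probes measured on all arrays. Tgif1, a Smad co-repressor gene, rose 1.20-fold (0.26 ± 0.06, limma adjusted p = 0.0165, 6 of 6 arrays), a call lost in 9 of 18 alternatives. Klf10, named for its response to TGF-β, did not pass beside these. Of the listed glucocorticoid response genes, 0 rose beside Klf9 by limma. Tsc22d3, which encodes the glucocorticoid-induced leucine zipper protein, fell 1.76-fold (-0.82 ± 0.15, limma adjusted p = 0.000676, 6 of 6 arrays), and the receptor gene Nr3c1 fell 1.26-fold (-0.34 ± 0.11, limma adjusted p = 0.0119, 5 of 6 arrays). The call of Tsc22d3 was lost in 4 of 18 alternatives and that of Nr3c1 in 9, each orientation alone among them for both. Per1 (0.03 ± 0.23) and Fkbp5 (0.09 ± 0.07) did not pass.

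The genes whose 6 array values lay nearest to those of a member, by Euclidean distance over the sign-turned arrays, were found among 9471 named genes. For Klf2 they were Inka1 (distance 0.23, mean -0.60), Helb (0.27, mean -0.71) and Chek2 (0.32, mean -0.56), where the median distance was 1.72. For Klf4 they were Tert (distance 0.32, mean -0.39), Pacc1 (0.34, mean -0.49) and Ggt6 (0.36, mean -0.47), against a median of 1.35. For Klf9 they were the macrophage marker gene Adgre1 (distance 0.25, mean 0.83), 6330407A03Rik (0.27, mean 0.76) and Bcl10 (0.28, mean 0.76), against a median of 1.98. Nearness here means like ratios on these arrays, which share RNA and dyes. The nearest genes lie below the median distance by selection, so the medians give only the scale.

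Of 7 macrophage markers measured, 2 rose (Adgre1 and the lineage factor gene Spi1) and 2 fell (Fcgr1 and Csf1r) by limma. Their median was 0.00, and 14.8% of all features passed. Csf1r (-0.21 ± 0.07) lost its call in 13 of 18 alternatives and Spi1 (0.47 ± 0.12) in 3 of 18. Of 6 lymphocyte, 5 fibroblast, 5 endothelial and 3 epithelial markers measured, 0 passed by limma. Cd3e, Cd4, Col1a1 and Kdr had an unadjusted p under 0.05 by limma, with means of 0.22, 0.17, 0.13 and 0.19. The share of all features at that threshold was not computed. Ratios give no marker levels, so none of these counts shows which cells were present. The part of these markers in the Klf values was not tested.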

How the data were processed

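The authors deposited log2 ratios of both channels, 1 per probe and array, for 16281 probes. How they corrected background and dye is not given in the sources used here. The log base comes from the values: on each array at least 87.3% of the non-zero ratios were short decimals (at most 7 places) once divided by log2 of 10, against at most 0.264% before division. Array medians were between 0.00 and 0.02. Exact zeros, 10.8% of the table, were set to missing. The 13224 probes with no missing value were named by the platform annotation and averaged per gene, for 11231 features. After the sign of the swapped arrays was turned, the arrays of a set were averaged, and limma 3.58.1 (R 4.3.3; lmFit, eBayes) tested the 3 set means against 0, two-sided, at a Benjamini-Hochberg threshold of 0.05. The script was tested on simulated data.

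Pairing by set follows the labels: before signs were turned, deviations of same-numbered arrays from their orientation's mean correlated over features with r of 0.40, 0.43 and 0.14. Once signs are turned, such shared deviations are opposite in sign within a set, so the set mean partly cancels them. The SD over sets can therefore be smaller than the spread over arrays. Without spot intensities, signal over background is unknown, and precision is limited by the number of arrays. The members, gene lists and 11 promoter motifs were chosen with earlier results of these data known. Named are the members, the other Klf and Sp genes, list genes past the threshold with examples of the rest, the 3 nearest genes to Klf2, Klf4 and Klf9, and Il1b for scale. RefSeq promoter windows matched 7 of 8 members.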

Additional observations from a re-analysis of the deposited data

Results flagged for a closer look

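On the forward array of set 2, Sp4 stood at -0.44, apart from its other 5 arrays, which lay between 0.30 and 0.58. By chance about 1 in 20 groups of arrays would pass the limit used to mark such a gap. Sp4 passed the threshold in 3 of 18 alternatives, including the fit without that array. None of the 8 Klf genes had an array set apart in this way.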

How the results depend on the processing

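The calls of Klf2, Klf6 and Klf9 held in all 19 alternatives, which left out sets or arrays, kept zeros, allowed missing values, centred arrays, fitted probes or single arrays, used 1 orientation or a robust variance prior. Klf4 kept its sign and lost its call in 6: with zeros kept as ratios of 0 (-0.47, adjusted p = 0.110), with the forward arrays alone (-0.35, adjusted p = 0.140) and in 4 of the 9 that left out a set or an array. Over those 9 it ranged from -0.56 to -0.37. The other members did not pass in any alternative. With the swapped arrays alone the sign turned for Klf3 (-0.093), Klf7 (0.13) and Klf13 (0.0034), and leaving out a set or an array gave ranges of -0.15 to 0.16, -0.17 to 0.058 and -0.052 to 0.018 for them and of -0.034 to 0.17 for Klf10. The same ranges were -0.71 to -0.58 for Klf2, 0.49 to 0.59 for Klf6 and 0.73 to 0.81 for Klf9, and 3 to 4 members passed.

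Of all features, 1663 passed, against 962 with zeros kept, 639 with the forward and 655 with the swapped arrays alone, and 533 to 1685 with a set or an array left out, 563 without set 3 and 1056 without set 1. With the set as a fixed replicate block the fit to single arrays gave the same 1663 calls as set means. With no replicate block it gave 1376, and with a random block (consensus correlation -0.441) 2282. The block changed no call of a member. The cause of these shifts was not tested. Depth is unknown for these ratios.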
